A study of Mus musculus with 40 samples.

Results

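The genes described here are those of antigen presentation by MHC class II: the chain genes H2-Aa, H2-Ab1 and H2-Eb1, the peptide exchange genes H2-DMa, H2-DMb1, H2-Oa and H2-Ob, the invariant chain gene Cd74 and the transactivator gene Ciita. They were chosen by name, as every probe set whose annotation on the array gives exactly 1 of these 9 symbols. That rule found 17 probe sets for the 9 genes, out of 45037 probe sets and 17097 named genes on the array. H2-Aa, H2-Ab1 and Ciita have 3 probe sets each, H2-DMa and H2-Ob have 2 each, and H2-Eb1, H2-DMb1, H2-Oa and Cd74 have 1 each.

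The study measured total RNA of J558LuM, a mouse plasmacytoma line, on 40 expression arrays, with a log2 signal for each probe set. Every culture was transduced, with the empty vector MIR (7 arrays), wild-type PAX5 (PAX5-WT, 7 arrays), PAX5-G183S (7 arrays), PAX5-G183V (7 arrays), PAX5-P80R (6 arrays) or PAX5-Δ2-6 (6 arrays). The title concerns germline PAX5 lesions and susceptibility to leukaemia, and the design sets each altered construct beside wild type and vector. Every array carries a transduction number of its own, and all transductions used a single line, so the p-values speak of variation among transductions only. The residue changed in PAX5-P80R lies in the part of PAX5 that binds DNA (the paired domain). That of PAX5-G183S and PAX5-G183V lies in the octapeptide. PAX5-Δ2-6 is named as in the labels.

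Class II molecules are pairs of an alpha and a beta chain that show peptides from the endosome to helper T cells. Cd74, the invariant chain, fills their groove until H2-DM exchanges its remnant for a peptide, and H2-O restrains H2-DM in B cells. Ciita brings the chain genes, the H2-DM genes and Cd74 into use together, and plasma cells normally shut it down through Prdm1, while B cells, in which PAX5 is active, keep class II on.

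RNA was isolated in 2 batches. Isolation batch 1 holds transductions 1 to 44 and isolation batch 2 transductions 45 to 66. MIR, PAX5-WT and PAX5-G183S came from the numbers 34 to 44 and 58 to 66, except PAX5-G183S replicate 4 with number 45. PAX5-G183V, PAX5-P80R and PAX5-Δ2-6 came from the numbers 1 to 9 and 46 to 57. For these last 3 groups, construct and transduction series cannot be told apart in a comparison with MIR or PAX5-WT. Plate 1 holds no PAX5-P80R or PAX5-Δ2-6 array. Medians of the 40 arrays ranged from 4.21 to 4.27 (log2 signal), and precision is bounded by how many arrays each group has. Plasma cell markers were high on every array (Xbp1 from 13.03 to 13.40, Prdm1 from 8.68 to 9.40). All 8 fibroblast markers had means below the array median. A log2 change is given ± its standard error and comes from limma with terms for group, plate and isolation batch. A probe set was called at a Benjamini-Hochberg adjusted p under 0.05 over all 45037 probe sets. In bulk RNA, more cells with a transcript and more transcript per cell cannot be told apart.

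The members started from very different signals in this line, and signals of different probe sets cannot be ranked as amounts of RNA. H2-Eb1 read 10.1 on average, above 94.33% of all probe sets, and Cd74 read 6.97. The first probe set of H2-DMa (1422527_PM_at) read 5.25. The other 14 probe sets had means between 3.13 and 4.66, close to or below the array median. The dimmest were 1443783_PM_x_at of H2-Aa (mean 3.13) and 1440837_PM_at of H2-Ob (3.20), which exceeded only 1.15% and 2.67% of all probe sets.

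H2-DMa and Cd74 were called higher than MIR for PAX5-WT, PAX5-G183S, PAX5-G183V and PAX5-P80R. Neither was called for PAX5-Δ2-6, where Cd74 was not shown to differ from PAX5-WT or PAX5-G183V either. H2-Aa and H2-Ab1, which encode the I-A alpha and beta chains, rose further with PAX5-P80R than with any other construct, on the 3 arrays of isolation batch 2. H2-Eb1 was called against MIR for PAX5-P80R and H2-DMb1 for PAX5-WT. Ciita, H2-Oa and H2-Ob passed the test in no comparison.

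H2-DMa encodes the alpha chain of the peptide exchange factor. Its probe set 1422527_PM_at read from 3.96 to 4.97 in MIR (median 4.41) and from 5.04 to 6.40 in PAX5-WT (median 5.82). It ran from 5.17 to 5.71 in PAX5-G183S (median 5.28), from 5.28 to 5.66 in PAX5-G183V (median 5.47) and from 5.29 to 6.49 in PAX5-P80R (median 5.56). All 27 arrays of these 4 groups lay above all 7 MIR arrays, as did the whole group at 0.899%, 0.839%, 1.07% and 0.893% of all probe sets for PAX5-WT, PAX5-G183S, PAX5-G183V and PAX5-P80R. PAX5-Δ2-6 read from 4.42 to 4.77 (median 4.56), inside the MIR range. Against MIR the log2 change was 1.36 ± 0.16 for PAX5-WT (2.56-fold, adjusted p = 8.96e-08), 0.86 ± 0.16 for PAX5-G183S (adjusted p = 0.000394) and 0.94 ± 0.16 for PAX5-G183V (adjusted p = 0.000112), all in the limma fit. PAX5-P80R reached 1.20 ± 0.18 (2.30-fold, limma adjusted p = 2.23e-05). PAX5-Δ2-6 gave -0.01 ± 0.18, with a 95% interval from -0.36 to 0.35. Ordered by batch-adjusted level the groups ran PAX5-WT, PAX5-P80R, PAX5-G183V, PAX5-G183S, MIR and PAX5-Δ2-6. The step from PAX5-G183S down to MIR was the only one between neighbours to pass the test. The second H2-DMa probe set, 1459872_PM_x_at, changed by 0.20 ± 0.08 with PAX5-WT (limma adjusted p = 0.213) and was called in no comparison, so the H2-DMa result rests on 1 probe set. On plate 2 alone the changes of PAX5-G183S (0.43, limma adjusted p = 0.583) and PAX5-G183V (0.67, limma adjusted p = 0.282) were not called. In a fit of PAX5-P80R and MIR alone, the PAX5-P80R change was not called either (0.94, limma adjusted p = 0.0936).

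Cd74, the invariant chain gene, rose in the same 4 groups. MIR arrays read from 6.32 to 6.69 (median 6.42), PAX5-WT arrays from 6.77 to 7.17 (median 7.10) and PAX5-G183S arrays from 6.85 to 7.52 (median 7.10). PAX5-G183V arrays ran from 6.65 to 7.26 (median 7.13), with 1 array inside the MIR range. PAX5-P80R arrays ran from 6.82 to 8.18 (median 7.42), and all 6 lay above MIR. PAX5-Δ2-6 arrays ran from 6.52 to 7.04 (median 6.80), with 4 of 6 above every MIR array. The log2 change from MIR in limma was 0.59 ± 0.12 for PAX5-WT (1.51-fold, adjusted p = 0.00199), 0.59 ± 0.12 for PAX5-G183S (adjusted p = 0.00232), 0.48 ± 0.12 for PAX5-G183V (adjusted p = 0.0133) and 0.96 ± 0.14 for PAX5-P80R (1.94-fold, adjusted p = 1.83e-05). PAX5-Δ2-6 changed by 0.29 ± 0.14, which did not pass (limma adjusted p = 0.694), and its interval from 0.0063 to 0.57 overlaps those of the octapeptide constructs. PAX5-Δ2-6 differed from PAX5-WT by -0.31 ± 0.14 (limma adjusted p = 0.27), and PAX5-G183V from PAX5-Δ2-6 by 0.20 ± 0.14 (limma adjusted p = 0.567). No step between neighbouring groups passed the test in the order PAX5-P80R, PAX5-WT, PAX5-G183S, PAX5-G183V, PAX5-Δ2-6 and MIR. On plate 2 alone the changes of PAX5-WT (0.53), PAX5-G183S (0.45) and PAX5-G183V (0.44) from MIR were not called (limma adjusted p from 0.313 to 0.476). The call was also lost for PAX5-WT in isolation batch 2 alone (0.56), PAX5-G183V in isolation batch 1 alone (0.33) and PAX5-P80R in a fit of it and MIR alone (0.88).

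H2-DMb1, which encodes the beta chain that pairs with H2-DMa, stayed near the median signal. It read from 3.65 to 4.01 in MIR (median 3.89) and from 3.92 to 4.60 in PAX5-WT (median 4.15), with 6 of 7 PAX5-WT arrays above every MIR array. The change was 0.33 ± 0.09 (1.26-fold, limma adjusted p = 0.0245). It was the only other member called for PAX5-WT, and the call was lost without PAX5-WT replicate 1 (the highest array, 0.25) and without PAX5-WT replicate 3, MIR replicate 4 or MIR replicate 7 (0.31 each). PAX5-Δ2-6 read from 3.57 to 3.87 and was lower than PAX5-WT by -0.41 ± 0.10 (limma adjusted p = 0.00883). That call was lost in isolation batch 1 alone (-0.45, limma adjusted p = 0.127) and in isolation batch 2 alone (-0.33, limma adjusted p = 0.315).

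For PAX5-WT against MIR, 3 of 17 member probe sets were therefore called, all higher, where 2.18% of all probe sets were called higher. The median change of the 17 was 0.20, and that of all probe sets was 0.0032. PAX5-G183S and PAX5-G183V had 2 of 17 each, against 2.25% and 3.3% of all probe sets called higher, with member medians of 0.13 and 0.09. PAX5-P80R had 8 of 17, where 1.23% of all probe sets were called higher, with a member median of 0.30. PAX5-Δ2-6 had 0 of 17, and limma called 0 (0%) of all probe sets higher in that comparison. At an unadjusted p under 0.05 it had 2 members, H2-Eb1 and Cd74. These 5 comparisons share the MIR arrays.

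Against PAX5-WT, no member was called for PAX5-G183S or PAX5-G183V over both batches, where limma called 0.0333% and 0.0289% of all probe sets (1 and 2 members at an unadjusted p under 0.05). In a fit with a term for each group in each batch, H2-Aa was called lower in PAX5-G183S in isolation batch 2, at 1 probe set (limma adjusted p = 0.0248). That fit called no member for PAX5-G183V in either batch. The interval for H2-DMa in PAX5-Δ2-6 against PAX5-WT ran from -1.72 to -1.01, around a change of -1.36 ± 0.18 (limma adjusted p = 1.05e-06). With H2-DMb1, it made 2 of 17 lower, beside 2.58% of all probe sets. With batches fitted apart, H2-DMa and H2-Aa were called lower in PAX5-Δ2-6 than in PAX5-WT in both isolation batches, and H2-DMb1 in neither. For PAX5-G183S, PAX5-G183V and PAX5-Δ2-6 against PAX5-WT by batch, the share of all probe sets called is not given here. These calls by batch therefore cannot be set beside it. PAX5-P80R exceeded PAX5-WT at 3 of 17 probe sets, beside 1.73% of all, namely H2-Ab1 1425477_PM_x_at and 1450648_PM_s_at and H2-Eb1. That count was 0 without PAX5-P80R replicate 6, 1 without PAX5-P80R replicate 4 or 5 or PAX5-WT replicate 4, 6 or 7, and 6 without PAX5-P80R replicate 2. Each of those H2-Ab1 changes turned slightly negative (-0.03 and -0.04) without the PAX5-P80R arrays of isolation batch 2. PAX5-P80R exceeded PAX5-Δ2-6 at 7 of 17 probe sets, beside 1.1% of all, and PAX5-G183V at 5 of 17, beside 1.13%. H2-DMa was the 1 member higher in PAX5-G183V than in PAX5-Δ2-6, beside 2.06% of all probe sets.

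**Figure D1:**
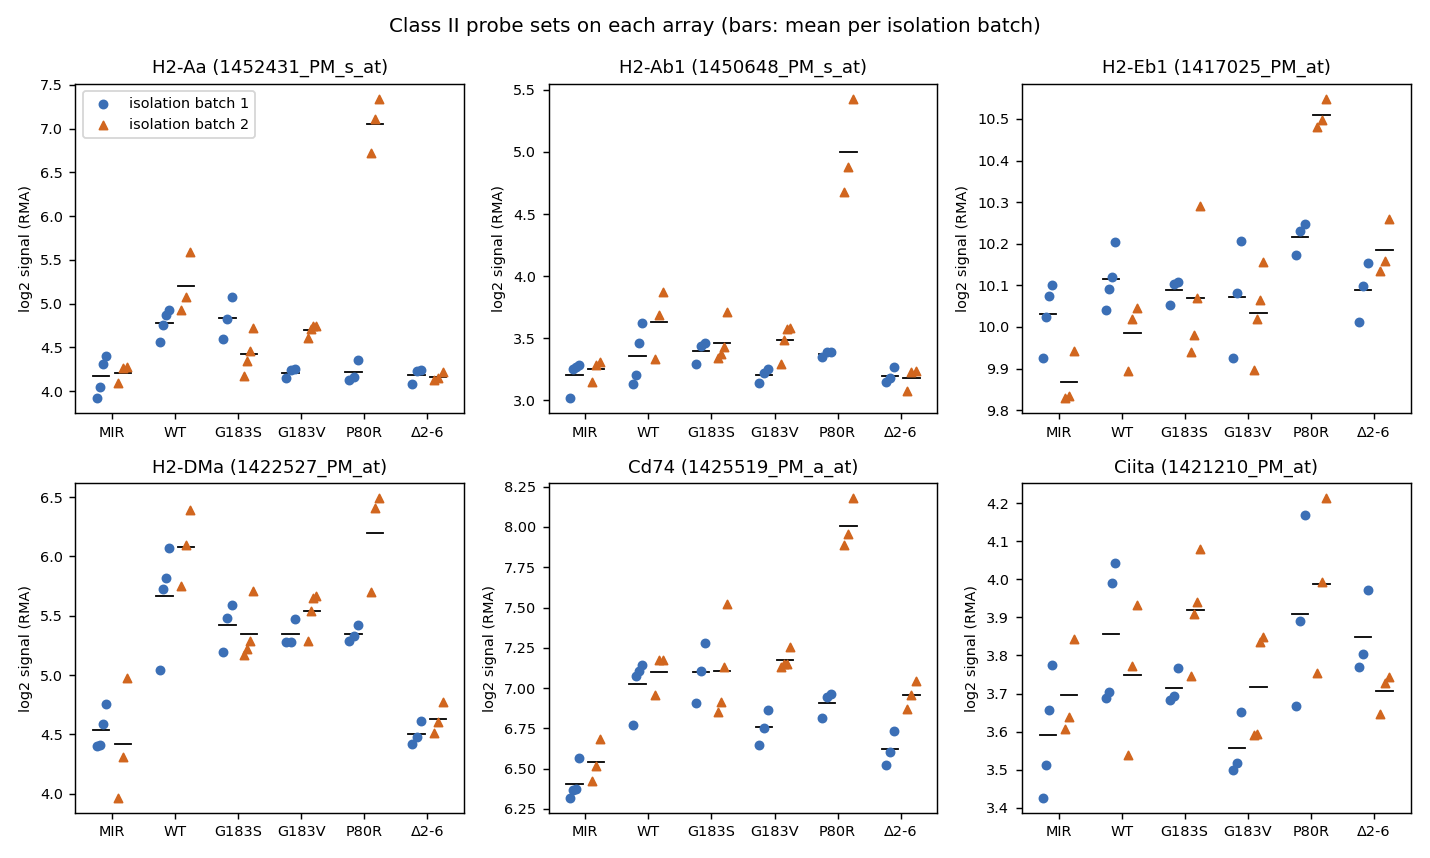
Log2 signal of 6 class II probe sets on all 40 arrays, by construct (horizontal axis) and RNA isolation batch (circles for batch 1, triangles for batch 2, bars for the mean of each batch in a group). The 3 PAX5-P80R triangles stand above all other arrays for H2-Aa, H2-Ab1, H2-Eb1 and Cd74, while H2-DMa is raised in 4 groups and Ciita overlaps across all groups.

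H2-Aa encodes the alpha chain of I-A, and 2 of its 3 probe sets changed alike. At 1452431_PM_s_at the PAX5-P80R arrays of isolation batch 2 read 6.72 (replicate 4), 7.34 (replicate 5) and 7.11 (replicate 6). The PAX5-P80R arrays of isolation batch 1 read 4.17, 4.36 and 4.13 (replicates 1 to 3), inside the MIR range of 3.92 to 4.40. At 1438858_PM_x_at the high arrays ran from 6.42 to 6.83 and the low arrays from 3.96 to 4.15, with MIR from 3.36 to 3.89. At 1452431_PM_s_at the highest of the 34 arrays of the other groups read 5.59, a PAX5-WT array. Pooled over batches the change from MIR was 1.46 ± 0.33 at 1452431_PM_s_at (limma adjusted p = 0.00787) and 1.59 ± 0.31 at 1438858_PM_x_at (limma adjusted p = 0.0019). Those pooled values lie between 2 sets of arrays that do not overlap and describe neither. The third H2-Aa probe set, 1443783_PM_x_at, read from 2.81 to 3.40 on all arrays and was called in no comparison.

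H2-Ab1 encodes the beta chain of the same molecule, and its 3 probe sets followed H2-Aa. In isolation batch 2 the PAX5-P80R arrays read from 5.40 to 5.69 at 1451721_PM_a_at, from 5.20 to 5.73 at 1425477_PM_x_at and from 4.68 to 5.43 at 1450648_PM_s_at. In isolation batch 1 they read from 3.96 to 4.53, from 3.99 to 4.19 and from 3.35 to 3.39. MIR ran from 3.86 to 4.41, from 3.77 to 4.13 and from 3.02 to 3.31 at the same probe sets. The high arrays lay above every MIR array at all 3 probe sets, as they did at 3.29% of all probe sets. The low arrays did so at 1450648_PM_s_at alone, and at 2.58% of all probe sets.

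H2-Eb1 encodes the beta chain of I-E, whose alpha chain comes from H2-Ea. Its signal was high everywhere and moved little. MIR ran from 9.83 to 10.10 (median 9.94), PAX5-WT from 9.90 to 10.20 (median 10.05) and PAX5-P80R from 10.17 to 10.25 in isolation batch 1 and from 10.48 to 10.55 in isolation batch 2. All 6 PAX5-P80R arrays lay above MIR, as at 0.893% of all probe sets, and the change was 0.38 ± 0.07 (1.30-fold, limma adjusted p = 0.00102). PAX5-Δ2-6 ran from 10.01 to 10.26, with 4 of 6 arrays above every MIR array. PAX5-P80R exceeded PAX5-Δ2-6 by 0.23 ± 0.07, which did not pass over both batches (limma adjusted p = 0.0952) but was called in isolation batch 2. PAX5-WT changed by 0.10 ± 0.06, which did not pass (limma adjusted p = 0.563).

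The comparison within each isolation batch separates these values. A fit with a term for each group in each batch gave 8 of 17 members called for PAX5-P80R against MIR in isolation batch 2, beside 1.43% of all probe sets called higher there. In isolation batch 1 it gave 1 of 17, Cd74, beside 0.315%. In isolation batch 2 the changes were 2.88 ± 0.16 and 2.86 ± 0.17 for H2-Aa (7.39-fold and 7.26-fold) and 1.30 ± 0.15, 1.64 ± 0.17 and 1.75 ± 0.15 for H2-Ab1. H2-DMa rose by 1.70 ± 0.22 there, Cd74 by 1.45 ± 0.13 and H2-Eb1 by 0.62 ± 0.08, with limma adjusted p from 1.24e-14 to 6.94e-06 over the 8. In isolation batch 1 the same probe sets changed by 0.08 ± 0.15 and 0.35 ± 0.16 (H2-Aa), 0.09 ± 0.13, 0.13 ± 0.15 and 0.17 ± 0.14 (H2-Ab1) and 0.17 ± 0.08 (H2-Eb1), none of which passed. Cd74 rose by 0.49 ± 0.12 (limma adjusted p = 0.0468), and H2-DMa changed by 0.74 ± 0.21 (limma adjusted p = 0.0982). A fit of isolation batch 1 alone called 2 members.

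The difference between those 2 changes was itself tested. It was called at 6 member probe sets: 2.80 ± 0.21 and 2.51 ± 0.22 for H2-Aa, 1.21 ± 0.19, 1.51 ± 0.22 and 1.58 ± 0.19 for H2-Ab1, and 0.96 ± 0.17 for Cd74 (limma adjusted p from 1.17e-10 to 0.00385). Of all probe sets, 139 (0.309%) were called either way and 0.144% in the direction of the members. By p-value the H2-Aa probe sets stood at ranks 3 and 5 of 45037. The count of 6 held when each MIR or PAX5-P80R array was left out in turn. H2-DMa at 0.96 ± 0.29 (limma adjusted p = 0.218) and H2-Eb1 at 0.45 ± 0.11 (limma adjusted p = 0.0722) did not pass. Between batches H2-Eb1 differed by -0.16 ± 0.08 within MIR (limma adjusted p = 0.396) and by 0.29 ± 0.08 within PAX5-P80R (limma adjusted p = 0.0522).

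**Figure D2:**
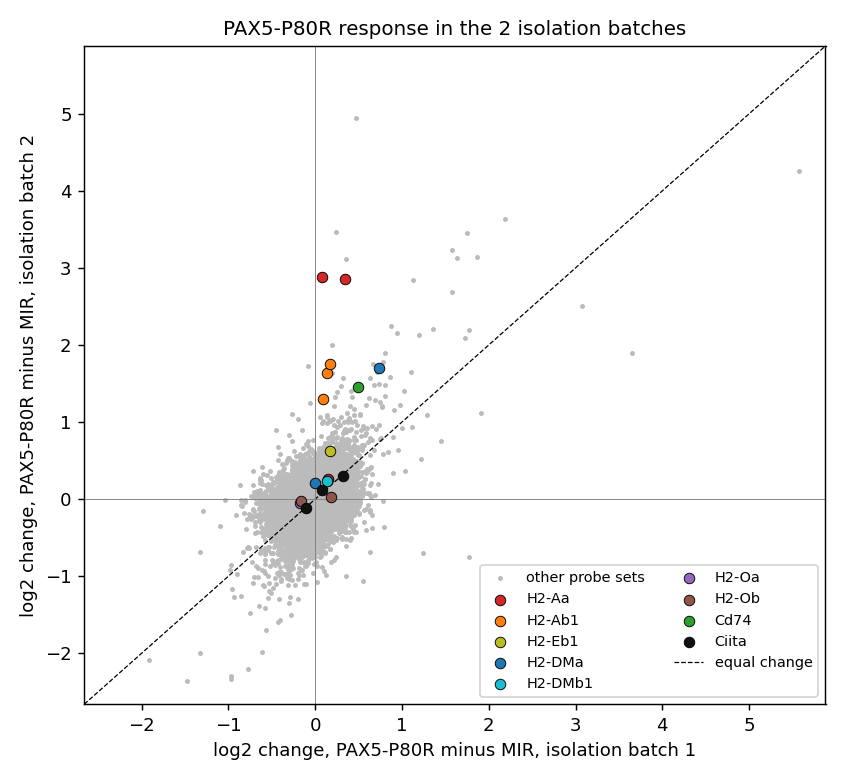
Log2 change of every probe set in PAX5-P80R against MIR in isolation batch 1 (horizontal) and isolation batch 2 (vertical), with the class II probe sets in colour. Of the 3 H2-Aa points, 2 lie near 2.9 in isolation batch 2, and all 3 lie under 0.4 in isolation batch 1. The third H2-Aa point lies at 0.25 in isolation batch 2, and the H2-Ab1, Cd74 and brighter H2-DMa points lie between 1.30 and 1.75 in isolation batch 2.

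The same term was called for 0 of 17 members in PAX5-WT, PAX5-G183S, PAX5-G183V and PAX5-Δ2-6 against MIR, where limma called 0.00666%, 0%, 0.415% and 0.0622% of all probe sets (0, 3, 2 and 1 members at an unadjusted p under 0.05). Transductions with neighbouring numbers did not share the level of the high PAX5-P80R arrays (48, 51 and 52). PAX5-G183V arrays 46, 47, 49 and 50 read from 4.61 to 4.75 at H2-Aa 1452431_PM_s_at, PAX5-Δ2-6 arrays 53, 56 and 57 read from 4.13 to 4.22, and PAX5-G183S array 45 read 4.73. Against PAX5-Δ2-6, whose arrays share the plate, the isolation batches and the transduction series with PAX5-P80R, the term was called at 5 members, beside 0.133% of all probe sets. It was 2.86 ± 0.21 and 2.64 ± 0.23 for H2-Aa in that comparison, which was added after the values were seen.

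Within groups, 7 of 17 members were higher in isolation batch 2 than in isolation batch 1 of PAX5-P80R, beside 0.788% of all probe sets. They were both responsive H2-Aa probe sets, the 3 of H2-Ab1, H2-DMa (0.85 ± 0.21) and Cd74 (1.10 ± 0.12). PAX5-G183V had a smaller difference of the same kind, with 3 of 17 members higher, beside 2.16%. H2-Aa rose there by 0.50 ± 0.14 and 0.52 ± 0.15 and Cd74 by 0.41 ± 0.12 (limma adjusted p from 0.0384 to 0.0477). Leaving out any 1 of its 7 arrays left 0 or 1 of the 3. MIR, PAX5-WT, PAX5-G183S and PAX5-Δ2-6 had 0 of 17 higher, beside 1.42%, 1.89%, 1.56% and 1.93% of all probe sets.

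**Figure D3:**
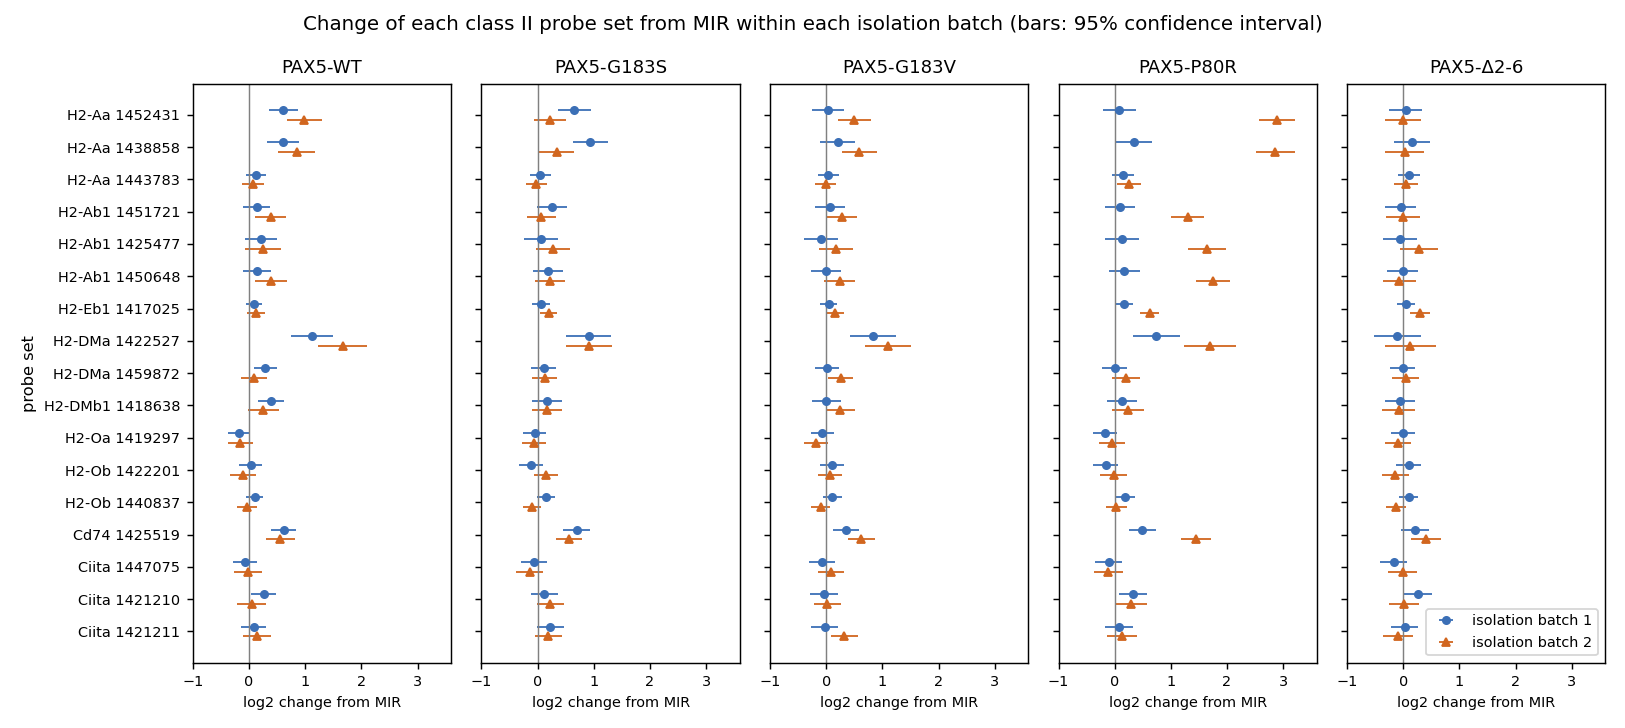
Log2 change from MIR of all 17 class II probe sets for each construct (panels), in isolation batch 1 (circles) and isolation batch 2 (triangles), with 95% confidence intervals from limma. In the PAX5-P80R panel the intervals of the batches do not overlap for 2 H2-Aa and 3 H2-Ab1 probe sets, H2-Eb1, H2-DMa 1422527_PM_at and Cd74. The intervals are not adjusted over all probe sets, and the share of all probe sets without overlap is not given. The test of the difference between batches called those H2-Aa, H2-Ab1 and Cd74 probe sets, but not H2-Eb1 or H2-DMa. None of the 17 PAX5-Δ2-6 probe sets was called in either batch.

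PAX5-WT also raised H2-Aa, by less. At 1452431_PM_s_at its arrays read from 4.57 to 5.59 (median 4.93), and at 1438858_PM_x_at from 4.17 to 4.89 (median 4.53). All 7 lay above all 7 MIR arrays at each of these probe sets, as 0.899% of all probe sets did. In the fit that pools the batches the changes of 0.77 ± 0.30 and 0.70 ± 0.28 did not pass (limma adjusted p = 0.175 and 0.206). That standard error includes the split within PAX5-P80R, since all groups share it. With batches fitted apart, H2-Aa rose in PAX5-WT by 0.61 ± 0.13 and 0.60 ± 0.14 in isolation batch 1 and by 0.99 ± 0.15 and 0.85 ± 0.16 in isolation batch 2, and each was called (limma adjusted p from 8.87e-05 to 0.011). With H2-DMa and Cd74 that made 4 of 17 members in each batch, beside 1.37% and 0.695% of all probe sets. H2-Aa in PAX5-G183S was called in isolation batch 1 (0.66 ± 0.14 and 0.93 ± 0.15), and in PAX5-G183V in isolation batch 2 (0.50 ± 0.14 and 0.59 ± 0.15). Those batches had 4 of 17 members called each, beside 1.11% and 3.78% of all probe sets. In isolation batch 1, PAX5-P80R was lower than PAX5-WT at H2-Aa 1452431_PM_s_at (-0.53 ± 0.15, limma adjusted p = 0.0455), the 1 member called there, beside 1.2% of all probe sets called lower. H2-Ab1 was not called for PAX5-WT in either batch.

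Ciita, the transactivator that class II genes need, gave no called change at any of its 3 probe sets. At 1421210_PM_at it read from 3.43 to 3.84 in MIR (median 3.64), from 3.54 to 4.04 in PAX5-WT (median 3.77) and from 3.67 to 4.21 in PAX5-P80R (median 3.94). The groups overlap, and the change in PAX5-P80R was 0.30 ± 0.10 (limma adjusted p = 0.0856). Probe sets 1447075_PM_at and 1421211_PM_a_at changed by -0.12 ± 0.09 and 0.09 ± 0.10 in PAX5-P80R. Its batch term was -0.01 ± 0.17, -0.03 ± 0.17 and 0.04 ± 0.17, with intervals inside -0.38 and 0.39. All 3 mean signals lay below the array median.

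H2-Oa and H2-Ob, whose product restrains H2-DM, read from 3.84 to 4.42 (H2-Oa), from 3.54 to 4.22 (H2-Ob 1422201_PM_at) and from 2.97 to 3.46 (H2-Ob 1440837_PM_at) over all arrays. In the fit that pools the batches, their lowest unadjusted p was that of H2-Oa in PAX5-WT against MIR, with a change of -0.17 ± 0.07 (limma adjusted p = 0.239).

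Start-site windows were at hand in RefSeq (GRCm38.p6) for 6 of the 9 genes, 7 windows in all, each from 250 bases before to 50 bases after the annotated start. Class II promoters are known for an X box and, closer to the start, a Y box that binds NF-Y. Both were searched as plain letters, GNAAC followed at 25 to 45 bases by TGATTGG on the gene's strand. These letters were settled on after reading the windows, so their count in the member genes is not a test. The pair was found in 5 of the 6 genes. It was found in 83 of 32851 windows of all genes, or 0.253% (0.572% on either strand), and TGATTGG alone in 4.01% (7.82% on either strand). The matched stretches, with both sets of letters in capitals, are shown because genes with the same layout responded differently.
H2-Aa, chr17:34287867-34287907, minus strand: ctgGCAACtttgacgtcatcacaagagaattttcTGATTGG
H2-Eb1, chr17:34305773-34305812, plus strand: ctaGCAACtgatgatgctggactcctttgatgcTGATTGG
H2-DMb1, chr17:34153094-34153134, plus strand: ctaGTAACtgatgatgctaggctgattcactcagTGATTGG
H2-Oa, chr17:34092300-34092340, plus strand: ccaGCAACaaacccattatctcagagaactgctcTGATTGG
H2-Ob, chr17:34238815-34238852, plus strand: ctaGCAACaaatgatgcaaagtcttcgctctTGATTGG
TGATTGG began 50 bases before the start in H2-Aa, 61 in H2-Eb1, 63 in H2-DMb1, 45 in H2-Oa and 59 in H2-Ob. H2-Aa changed most and H2-Oa and H2-Ob passed no test, though each has both sets of letters. H2-DMa, which rose in 4 groups, has 2 windows, and the pair was found in neither. These windows begin at 34122582 and 34125268, inside the annotated gene (34119693 to 34139101) and not at its first base. Whether they cover the promoter used in this line was not tested, so H2-DMa cannot be said to lack the layout. These are letters of a reference genome, not of this line, and a match is not a site of binding.

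Few of the other genes of the pathway were called. Of 15 genes listed for processing and accessory class II chains, 13 were measured. With PAX5-WT 3 of the 13 were called, all higher: the accessory chain H2-DMb2 (0.43 ± 0.13), the protease Ctsl (0.40 ± 0.08) and the tetraspanin Cd37 (0.39 ± 0.09). Over 17097 genes, 2.94% were called higher in that comparison. Ctsl alone was called in PAX5-G183S (0.37 ± 0.08) and PAX5-G183V (0.39 ± 0.08), beside 3.14% and 4.67% of all genes. PAX5-P80R had 4 of 13 called, all higher, beside 1.78%: H2-Ea (0.78 ± 0.21 at 1422891_PM_at), Cd82 (0.46 ± 0.12), Cd37 (0.43 ± 0.10) and the protease Ctsd (0.35 ± 0.06). The median change of the 13 in PAX5-P80R was 0.0874, beside -0.0009 for all probe sets. H2-DMb1 and H2-DMb2 are near-identical copies, and their probe sets may read both. PAX5-Δ2-6 had 0 of 13 called by limma and 0 at an unadjusted p under 0.05.

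H2-Ea, the I-E alpha chain gene, is no member by the rule and was chosen after its values were seen. At its probe set 1422892_PM_s_at PAX5-P80R read from 8.69 to 9.17 in isolation batch 2 and from 4.25 to 4.67 in isolation batch 1, beside 3.75 to 4.19 in MIR. The batch term was 4.47 ± 0.30 (limma adjusted p = 1.77e-11), first by p-value of all probe sets. PAX5-WT read from 5.17 to 6.51 there, clear of MIR, with a change of 1.67 ± 0.46 (limma adjusted p = 0.0267). PAX5-G183V again divided by batch, from 3.70 to 4.00 in isolation batch 1 and from 5.24 to 5.79 in isolation batch 2. The third H2-Ea probe set, 1426202_PM_at, lay between 3.00 and 3.86 on all arrays.

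Of 19 genes listed as regulators of class II, 18 were measured. Spib, an ETS factor of B cells, rose with PAX5-WT (1.68 ± 0.28), PAX5-G183S (1.69 ± 0.28) and PAX5-G183V (1.34 ± 0.28). PAX5-G183V differed by batch, with 5.22 to 5.37 and a change of 0.54 ± 0.21 in isolation batch 1 (limma adjusted p = 0.322), and 6.51 to 6.81 and 2.04 ± 0.21 in isolation batch 2 (limma adjusted p = 1.45e-08). The difference between those changes was called (limma adjusted p = 0.0107). In PAX5-P80R it read from 4.79 to 5.00 in isolation batch 1, within the MIR range of 4.36 to 5.00, and from 6.49 to 6.65 in isolation batch 2. Its batch term in PAX5-P80R was 1.81 ± 0.30 (limma adjusted p = 0.00149), the only one called for PAX5-P80R among the 18 regulators. PAX5-WT arrays read from 5.84 to 7.15. The part of Spib in the class II values was not tested. Zbtb32, a repressor of Ciita, rose with PAX5-WT (0.89 ± 0.15) and PAX5-G183S (0.81 ± 0.15), as did Creb1 (0.25 ± 0.06 and 0.31 ± 0.06). Irf8 rose in PAX5-G183S (0.59 ± 0.17) and Creb1 in PAX5-G183V (0.21 ± 0.06). Over the 18, limma called 3 higher for PAX5-WT, 4 for PAX5-G183S and 2 for PAX5-G183V, beside 2.94%, 3.14% and 4.67% of all genes. Only Rfxank, a subunit of the RFX complex that binds the X box, was called in PAX5-P80R, and it fell by 0.42 on the log2 scale (limma adjusted p = 0.0437). In isolation batch 2 of PAX5-P80R, Rfxank changed by -0.59 ± 0.15, Rfx5 by -0.39 ± 0.10 and Irf1 by 0.42 ± 0.10, all called. Limma called 2 of the 18 higher and 2 lower there, beside 1.43% of all probe sets called higher. The share called lower in PAX5-P80R is not given here. Prdm1 changed by -0.02 ± 0.06 in PAX5-P80R and was called in none of these comparisons.

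Called changes from MIR of MHC class I presentation genes were smaller than those of H2-Aa, H2-Ab1, H2-DMa and Cd74. They were not all smaller than that of H2-Eb1 in PAX5-P80R (0.38). Of 19 listed genes 16 were measured, and in PAX5-P80R the chain genes H2-K1 (0.42 ± 0.07) and H2-D1 (0.40 ± 0.06) were called higher, both from families of near-identical sequence. Of all genes, 1.78% were called higher in PAX5-P80R and 4.67% in PAX5-G183V. PAX5-WT lowered Tapbpl (-0.30 ± 0.07) and H2-M3 (-0.23 ± 0.07). PAX5-G183S lowered Tapbpl (-0.27 ± 0.07), and PAX5-G183V lowered H2-M3 (-0.29 ± 0.07) and raised Psmb10 (0.23 ± 0.07) and H2-D1 (0.21 ± 0.05). No class I gene had a called batch term in PAX5-P80R (limma, 0 of 16, with 4 at an unadjusted p under 0.05). Of 8 co-stimulation genes Cd80 was called, in PAX5-WT (0.38 ± 0.10), PAX5-G183S (0.41 ± 0.10) and PAX5-G183V (0.39 ± 0.10), beside 2.94%, 3.14% and 4.67% of all genes called higher.

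Other cells with class II would be dendritic cells or macrophages. Of 14 of their markers 11 were measured, and Flt3 alone was called higher than MIR, in PAX5-WT (1.33 ± 0.13), PAX5-G183S (1.23 ± 0.13), PAX5-G183V (1.39 ± 0.13), PAX5-P80R (0.69 ± 0.14) and isolation batch 2 of PAX5-P80R (0.93 ± 0.17). The mean over the 11 ran from 4.52 to 4.64 on the high PAX5-P80R arrays, from 4.58 to 4.83 on the low ones and from 4.55 to 4.70 in MIR. Itgam, Itgax, Lyz2, Adgre1, Fcgr1, Zbtb46, Xcr1 and Cd14 had means below the array median, while Cd68 (10.5), Flt3 (5.93) and Csf1r (5.28) did not. None of the 11 had a called batch term in PAX5-P80R (limma, 2 at an unadjusted p under 0.05). Of 7 B cell markers, Ms4a1, which encodes CD20, rose in PAX5-WT (5.29 ± 0.28), PAX5-G183S (4.99 ± 0.28) and PAX5-G183V (4.98 ± 0.28). Of the B cell markers and 8 fibroblast markers, none was called in PAX5-P80R against MIR over both batches by limma (1 of each at an unadjusted p under 0.05), nor any of 7 T cell markers (0 at that level). In isolation batch 2 of PAX5-P80R the B cell marker Cd79b (-0.33 ± 0.08) and the T cell marker Cd3g (-0.34 ± 0.09) were called lower than MIR. Of 6 plasma cell markers, Jchain (-0.96 ± 0.13) and Tnfrsf17 (-0.61 ± 0.12) were called lower there as well, and limma called none of the 6 in isolation batch 1 (0 at an unadjusted p under 0.05). Ly6c1 was lower in PAX5-WT (-0.92 ± 0.08), PAX5-G183S (-0.95 ± 0.09) and PAX5-G183V (-0.80 ± 0.09), as was Xbp1 (-0.14, -0.16 and -0.15, each ± 0.04), and Jchain was lower in PAX5-G183V (-0.63 ± 0.15). In PAX5-P80R over both batches limma called 0 of the 6 (3 at an unadjusted p under 0.05), and Jchain had a called batch term (-0.76 ± 0.17, limma adjusted p = 0.0313), though within PAX5-P80R it changed by 0.0009 between batches. The Pax5 probe set 1421765_PM_at read from 4.77 to 5.04 on the low PAX5-P80R arrays and from 4.53 to 5.41 on the high ones. Against MIR it changed by 0.61 ± 0.17 in PAX5-P80R (limma adjusted p = 0.0348). The change was larger in PAX5-Δ2-6, at 0.80 ± 0.17, though not called (limma adjusted p = 0.353). PAX5-G183V changed by 0.41 ± 0.15, PAX5-WT by 0.30 ± 0.15 and PAX5-G183S by 0.17 ± 0.15, none of them called. The batch term of Pax5 in PAX5-P80R was 0.12 ± 0.29, with a 95% interval from -0.47 to 0.72. Whether the array's Pax5 probe set reads the construct was not tested. What part any of these had in the class II values was not tested.

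Likeness of pattern was measured by Pearson's r over the 40 arrays, among 15978 other probe sets that name 1 gene and lie above the median signal. The points share constructs and batches, so r is a description. For H2-DMa the nearest were the transcription factor gene Ets1 (0.910 and 0.870 at 2 probe sets), Dennd3 (0.907), Nmi (0.856) and Pate14 (0.836). They stayed between 0.839 and 0.893 over the 37 arrays without PAX5-P80R in isolation batch 2. For Cd74 they were H2-Ea (0.881), Etnk1 (0.849), Ipmk (0.836), 1110059E24Rik (0.834) and Tbc1d22a (0.828), with values between 0.613 and 0.762 over those 37 arrays. Among members, H2-Aa 1452431_PM_s_at and Cd74 had r of 0.832, and 0.594 without those arrays. H2-Aa and H2-Ab1 1425477_PM_x_at had 0.839, and 0.295 without them. With H2-Ab1 1451721_PM_a_at it was 0.871, and 0.502 without them. With H2-Ab1 1450648_PM_s_at it was 0.9045, and 0.592 without them. H2-Aa and the Ciita probe sets had -0.141, 0.362 and 0.237.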

How the data were processed

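The deposited table holds a log2 signal for every probe set on each array. The submitters' processing notes name RMA, with no version in the sources used here. These log2 values entered the fits as the authors deposited them. Of 45141 probe sets, 104 Affymetrix controls were left out, and no filter on low signals was applied. The median standard error of a log2 change was 0.08 for PAX5-WT against MIR. No 2 arrays held identical values, and the highest correlation was 0.9969.

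Group, plate, isolation batch and transduction were read off the labels. All fits used limma 3.58.1 under R 4.3.3. The first covered all 40 arrays with terms for group, plate and isolation batch, in 12 comparisons, and a second fit had a term for each group in each isolation batch with plate. Within each comparison the Benjamini-Hochberg adjustment ran over the whole set of probe sets. The fits were tested on simulated data. Lists were counted by the probe set of highest mean of each gene, and up to 4 called genes per list and comparison with the largest change were named, as were the 5 probe sets most like H2-DMa and Cd74. H2-Ea by all probe sets, and list genes named by isolation batch, were chosen after their values were seen. The members and lists were chosen with earlier results of these data known. Listed genes without a value were not analysed here. Replicate numbers did not pair the arrays: of 96 same-numbered pairs 10 had a correlation over 0.1.

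Alternatives were no batch or plate terms, single isolation batches or plate 2, batch as a random block, 3 transduction series, only the groups compared, a replicate block, 1 probe set per gene, quantile normalization again, median centring, a filter on dim probe sets, trend and robust settings, array weights and each array left out in turn. Leaving out 3 PAX5-P80R arrays was added after seeing the data.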

Additional observations from a re-analysis of the deposited data

Results flagged for a closer look

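The change of PAX5-P80R from MIR differed between the isolation batches by a test of the difference itself at 6 member probe sets. Batch 2 minus batch 1, the difference was 2.80 at H2-Aa 1452431_PM_s_at, 2.51 at H2-Aa 1438858_PM_x_at, 1.21 at H2-Ab1 1451721_PM_a_at, 1.51 at H2-Ab1 1425477_PM_x_at, 1.58 at H2-Ab1 1450648_PM_s_at and 0.96 at Cd74. The cause was not tested.

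Single arrays stood apart from the rest of their group by Dixon's criterion in 6 of 102 combinations of probe set and group (5.88%), where chance gives about 1 in 20. MIR replicate 2 was low at H2-Aa 1438858_PM_x_at (3.36), and MIR replicate 5 was high at H2-Ob 1440837_PM_at (3.46). PAX5-WT replicate 1 was high at H2-DMb1 (4.60), and PAX5-G183V replicate 1 was high at H2-Aa 1443783_PM_x_at (3.31). PAX5-G183S replicate 5 was high at H2-Ab1 1450648_PM_s_at (3.71), and its replicate 6 was low at H2-DMa 1459872_PM_x_at (3.40). Without PAX5-WT replicate 1 the H2-DMb1 call against MIR was lost.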

How the results depend on the processing

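Of 891 values of the 33 called changes under alternatives, 746 kept direction and call, 140 kept the direction without the call and 5 reversed. The reversals were H2-Ab1 1425477_PM_x_at in PAX5-P80R against PAX5-WT (-0.0268 in isolation batch 1 alone and -0.0349 without the PAX5-P80R arrays of isolation batch 2), H2-Ab1 1450648_PM_s_at there (-0.0389) and H2-Aa in PAX5-P80R against PAX5-G183V (-0.1702 and -0.0712), the last 3 also without those arrays. Those arrays set most PAX5-P80R counts: without them members called were 2 of 17 against MIR (8 with them), 1 against PAX5-WT (3), 1 against PAX5-Δ2-6 (7) and 0 against PAX5-G183V (5). In isolation batch 1 alone these 4 counts were 2, 1, 0 and 0, and PAX5-G183S against MIR had 4, PAX5-G183V against MIR 1, against PAX5-WT 1 and against PAX5-Δ2-6 0. Neither without those arrays nor in isolation batch 1 alone did any of the 3 rises over PAX5-WT keep its call. The 1 call against PAX5-WT in each setting was thus at another probe set, as these counts take either direction. In isolation batch 2 alone PAX5-P80R against PAX5-WT had 7. Plate 2 alone gave 1, 0, 0 and 2 for PAX5-WT, PAX5-G183S, PAX5-G183V and PAX5-P80R against MIR, 1 and 0 for PAX5-P80R against PAX5-WT and PAX5-G183V, and 2 for PAX5-G183V against PAX5-Δ2-6. With only the 2 groups compared in the fit, PAX5-WT and PAX5-G183S against MIR had 5 and 4, and PAX5-P80R had 0, 0, 2 and 0 against MIR, PAX5-WT, PAX5-Δ2-6 and PAX5-G183V, since its own split then sets the spread. With 3 transduction series as a term, PAX5-P80R against PAX5-WT had 7, PAX5-Δ2-6 against PAX5-WT 1 and PAX5-Δ2-6 against MIR 1. Counted by 1 probe set per gene, PAX5-P80R had 5, 1, 4 and 3 against MIR, PAX5-WT, PAX5-Δ2-6 and PAX5-G183V. With the dim filter PAX5-P80R had 5 and 1 against MIR and PAX5-WT, PAX5-Δ2-6 had 1 against PAX5-WT, and the difference between batches within PAX5-G183S had 1. Array weights gave 1 within PAX5-WT and 1 within PAX5-G183S.

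With the replicate block, PAX5-P80R had 2 members called against MIR, 0 against PAX5-WT and 0 against PAX5-G183V, and 5 of 40 arrays correlated best with an array of their own number. Leaving out single arrays gave 0 to 6 for PAX5-P80R against PAX5-WT, 2 to 8 against PAX5-G183V, 0 to 1 within PAX5-G183S and 0 to 1 within PAX5-G183V. The 6 batch terms of PAX5-P80R held in each of those 13 fits. Signals near the array median limit what can be seen of Ciita, H2-Oa and H2-Ob.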
